A study of Mus musculus with 3 samples.

Results

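The genes described here encode the receptors through which retinal neurons sense glutamate, GABA, glycine, acetylcholine, dopamine, serotonin and noradrenaline. They were chosen by symbol alone, as the genes of the ionotropic and metabotropic glutamate, GABA-A and GABA-rho, glycine, nicotinic, muscarinic, dopamine, serotonin and adrenergic receptor families that had a probe set annotated to a single symbol. This gave 51 genes out of 8251, measured by 63 probe sets. Where a gene had several, a plain suffix was preferred and then the greatest mean signal.

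Signals were measured on 3 one-colour arrays whose titles name the Affymetrix U74Av2 design. Each array carried RNA pooled from the neural retinas of 3 to 4 mice. All mice were homozygous Rp1 knockouts (Rp1-/-) on a mixed 129/SvEv and C57BL/6 background, killed at postnatal day 21, with retinas taken between 1 and 2 pm. The product of Rp1 binds microtubules in the outer segments of photoreceptors. The 3 pools form 1 group and no wild-type group was analysed here, so the values describe these pools and no receptor gene was tested between conditions. Pooling hides the variation between mice, and the spread between pools includes technical variation. The transcript of Rp1 was not analysed here. A bulk signal also cannot tell fewer cells of a type from less RNA per cell.

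Photoreceptors and bipolar cells release glutamate, and their partners read it in different ways. OFF bipolar cells and horizontal cells use AMPA and kainate channels, ON bipolar cells use a metabotropic receptor that closes a channel, and ganglion and amacrine cells combine AMPA with NMDA channels. Amacrine cells answer with GABA and glycine, which open chloride channels, and small groups of amacrine cells release acetylcholine or dopamine.

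A signal is the deposited linear intensity of a probe set after a common scaling of the arrays. It was called above background when it exceeded the 95th percentile of the 19 controls that match yeast or bacterial transcripts on the same array. That limit was 160.3, 80.7 and 107.1 in replicates 1, 2 and 3. Replicate 1 stood apart from the other pools. Of the genes above the limit on both arrays compared, 5.66% differed by a factor of 2 or more between replicates 2 and 3, against 17.8% between replicates 1 and 3 and 21.9% between replicates 1 and 2. Probe sets differ in response, so signals are compared between pools of 1 gene and never between genes. The pools carried retinal markers of rods (4 of 4 measured above the limit on all arrays), ganglion cells (6 of 6), Müller glia (6 of 6), bipolar cells (3 of 4) and amacrine and horizontal cells (6 of 7). Some markers of other tissues were also above the limit on all arrays. These were for lens (5 of 5), pigmented cells (2 of 5), blood (2 of 4), endothelium (3 of 4) and smooth muscle and stroma (3 of 7). Over all genes the share was 60.7%, and the shares for pigmented cells, blood and smooth muscle and stroma were below it.

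Of the 51 receptor genes, 25 were above the limit on all 3 arrays, 10 on 2 arrays, 8 on 1 array and 8 on none. Over all 8251 genes, 60.7% were above the limit on all arrays and 15.7% on none, so that a smaller share of receptor genes than of all genes was seen in every pool; this difference was not tested. By array, 35 of the 51 receptor genes were above the limit in replicate 1, 35 in replicate 2 and 33 in replicate 3. The shares of all genes were 69.39%, 75.62% and 73.63%. In replicate 1 alone the receptor share was thus close to that of all genes. The families differed in how many members were seen on every array. Ionotropic glutamate receptor genes, with the delta family counted among them, had 8 of 12 members above the limit on all arrays, and those that open chloride channels had 7 of 12. Nicotinic receptors had 3 of 8, muscarinic receptors 0 of 2 and monoamine receptors 6 of 16. Of the 25 genes, Chrng, Gabrb2 and Grik1 lay within 1.3-fold of the limit on at least 1 array, and Gabrg3, Gria3 and Grik2 missed the limit on 1 array at 0.8 of it or more.

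**Figure D1:**
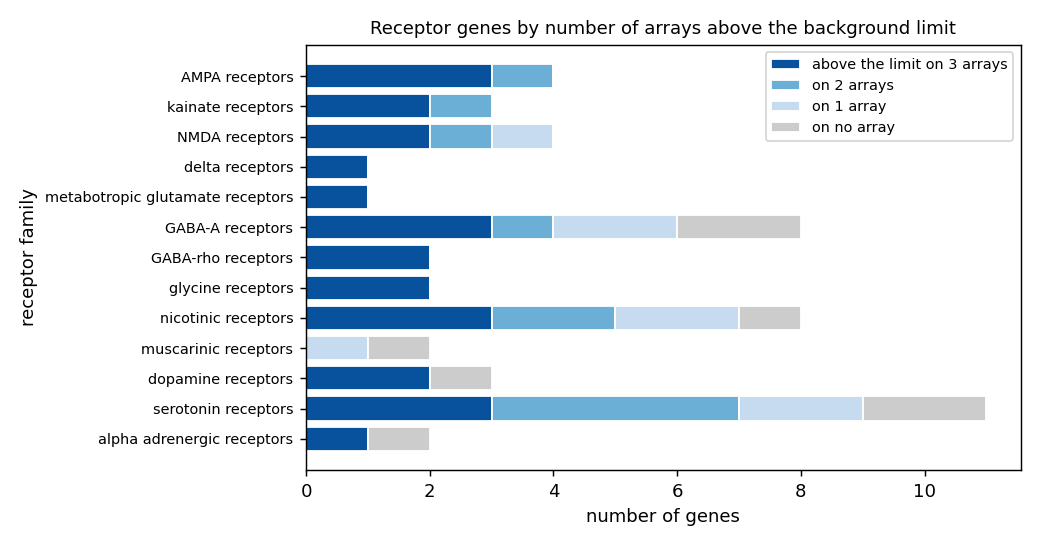
Bars give the number of genes of each receptor family, split by the number of arrays on which the gene was above the background limit. No gene of the AMPA, kainate, delta, metabotropic glutamate, GABA-rho and glycine families is below the limit on more than 1 array, while the serotonin family, the largest with 11 genes, has 3 genes above it on all arrays.

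AMPA receptors, the fast glutamate channels of OFF bipolar, horizontal, amacrine and ganglion cells, were above the limit on all arrays for 3 of 4 subunit genes. Gria1 gave 678, 344 and 378 in replicates 1, 2 and 3 (466 ± 184, SD, n = 3). Replicate 1 was highest, 1.97-fold above the lowest pool, and the other pools were close to each other. Gria2, whose subunit keeps calcium out of the channel, gave 442, 543 and 359 (448 ± 92.4), with no pool standing apart. Gria4 gave 258, 148 and 200.1 (202 ± 55.1), a 1.75-fold span. Gria3 was 173 in replicate 1, 229 in replicate 2 and, at 100.1, just below the limit in replicate 3, so that replicate 2 was at least 2.14-fold above replicate 3.

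Kainate receptors gave 2 of 3 genes above the limit on all arrays. Grik5, which encodes an accessory subunit that needs a partner to form a channel, gave 958, 734 and 593 (762 ± 184), a 1.62-fold span. Grik1, a channel-forming subunit found on OFF bipolar cells, gave 277, 136 and 119 (178 ± 86.8). Replicate 1 was thus 2.32-fold above replicate 3, with replicates 2 and 3 near the limit. Grik2 gave 189, 109 and 102, below the limit in replicate 3 by a narrow margin.

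NMDA receptor genes on the array encode modulatory subunits, which set the opening time and magnesium block of the channel. All 4 were above the limit on at least 1 array, and these genes varied widely between pools. Grin2c gave 1305.5, 276 and 528 (703 ± 537), and Grin2d gave 362, 116 and 191 (223 ± 126). In both genes replicate 1 was highest and replicate 2 lowest, by 4.73-fold for Grin2c and 3.12-fold for Grin2d. Grin2a was above the limit in replicate 1 alone, at 171 against 27.4 and 41.6, a difference of at least 2.12-fold from replicate 2. It passed there at only 1.07 times the limit. Grin2b ran the other way, below the limit at 95.2 in replicate 1 and above it at 134 and 199.8 in replicates 2 and 3.

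Grid1 of the delta family, a synapse organiser that resembles glutamate channels, gave 425, 372 and 537 (445 ± 84.2). Grm8, a metabotropic receptor that damps glutamate release from photoreceptor and other terminals, gave 343, 395 and 612 (449.8 ± 143). Both were highest in replicate 3, by 1.44-fold and 1.78-fold over their lowest pool. Grm8 was the metabotropic glutamate receptor gene measured, so the receptor of ON bipolar cells itself was not analysed here.

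**Figure D2:**
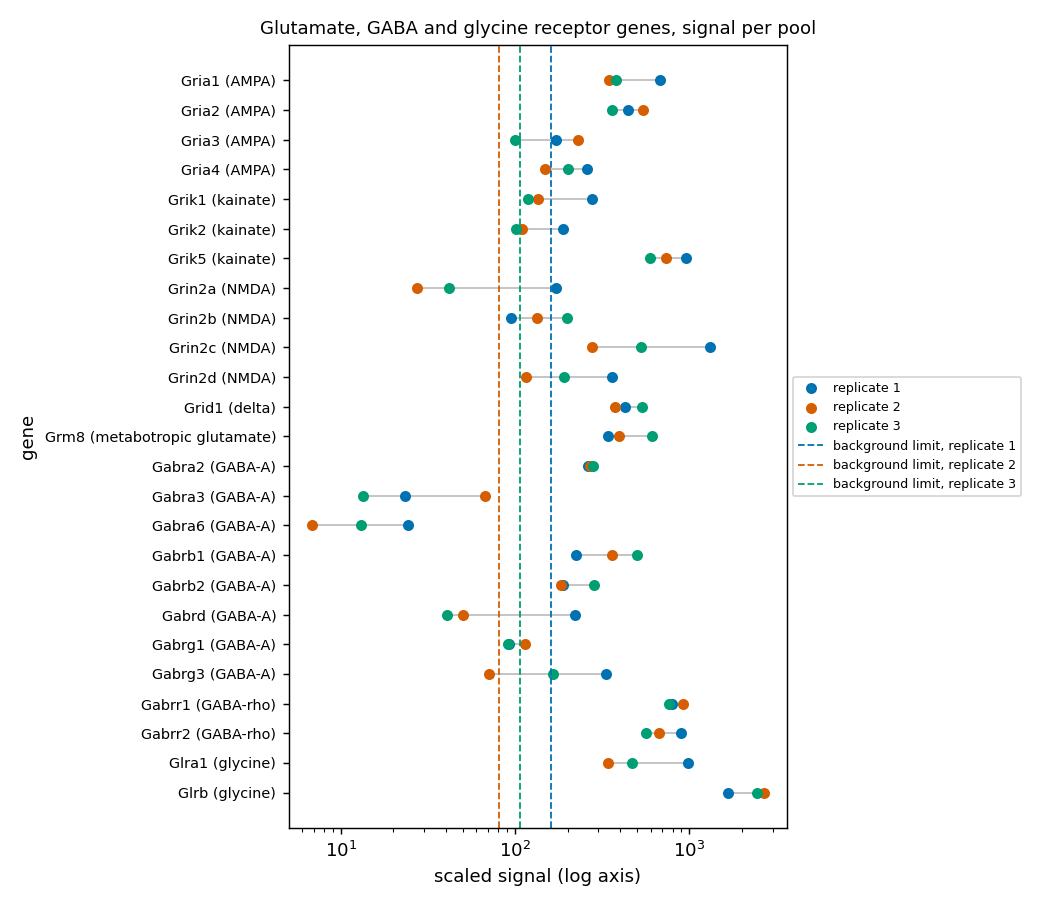
Each row is a receptor gene for glutamate, GABA or glycine, and the points are its scaled signals in the 3 pools on a log axis, joined by a grey line. Dashed lines mark the background limit of each array (160.3, 80.7 and 107.1). Gabra2 spans 261 to 279, while Grin2c spans 276 to 1305.5.

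GABA-rho subunits form slowly closing chloride channels that in the retina sit on bipolar cell terminals, and both genes measured were above the limit on all arrays. Gabrr1 gave 795, 920.3 and 765 (827 ± 82.4), a 1.20-fold span. Gabrr2 gave 892, 671 and 563 (709 ± 168), a 1.58-fold span. Neither gene had a pool that stood apart. The genes are direct neighbours in the gene order of the mouse reference. Of the other neighbouring pairs, Glrb and Gria2 were both seen on all arrays. In the rest the count differed within the pair, with Gabra2 seen on all arrays and Gabrg1 on 1, Gabrb2 on all and Gabra6 on none, and Chrng on all and Chrnd on 1.

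GABA-A receptors, which carry fast inhibition on most retinal neurons, had 3 of 8 measured genes above the limit on all arrays. Gabra2 gave 261, 268 and 279 (269.5 ± 9.23), a 1.07-fold span. This narrow span depended on the scaling, since the log2 range of Gabra2, 0.10, became 0.49 with medians equalised and 0.48 with quantile normalization. The beta subunits, which every such channel needs, gave 225, 359.8 and 497 for Gabrb1 (361 ± 136) and 189, 184 and 282 for Gabrb2 (219 ± 54.8). Both beta genes were highest in replicate 3, and Gabrb1 was 2.21-fold higher there than in replicate 1.

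The remaining GABA-A genes were each below the limit on at least 1 array. Gabrg3 was 330.2 in replicate 1 and 165 in replicate 3, and fell below the limit in replicate 2, at 70.8, which puts replicate 1 at least 4.09-fold above it. Gabrd, the subunit of channels outside synapses, was seen in replicate 1 alone, at 221 against 50.5 and 40.7. Gabrg1 was seen in replicate 2 alone, at 114 against 91.8 and 91.2. The limit was lowest in replicate 2, at 80.7, and all of these signals lie above that value. Gabra3 (23.5, 66.8 and 13.5) and Gabra6 (24.5, 6.81 and 13.1) stayed below the limit on all arrays.

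Glycine receptors carry the inhibition from small-field amacrine cells, and both genes measured were above the limit on all arrays. Glrb, the subunit that ties the receptor to the synapse, gave 1661, 2672 and 2428 (2254 ± 527), lowest in replicate 1 by 1.61-fold. Glra1, a ligand-binding alpha subunit, gave 984, 339 and 467 (597 ± 342), highest in replicate 1 by 2.90-fold over replicate 2. The alpha and beta genes thus ran in opposite directions between pools. Glrb is a direct neighbour of Gria2 in the reference gene order.

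The promoters of 4 members are printed, chosen after their values were seen. They are the neighbours Gabrr1 and Gabrr2, seen together on all arrays, and Gabra2 and Drd4, which are among the 5 genes of narrowest span. The windows come from the RefSeq promoter table of GRCm38.p6 and run from 250 bases before to 50 after the gene start, 300 bases in all. They lie at chr5:71095800-71096099 on the minus strand for Gabra2, chr4:33132306-33132605 on the plus strand for Gabrr1, chr4:33062862-33063161 on the plus strand for Gabrr2 and chr7:141291768-141292067 on the plus strand for Drd4. Capitals mark TAATCC or its reverse complement GGATTA, the core bound by the photoreceptor and bipolar cell factors of the Otx family, and CACGTG, the E-box core bound by clock factors.
Gabra2: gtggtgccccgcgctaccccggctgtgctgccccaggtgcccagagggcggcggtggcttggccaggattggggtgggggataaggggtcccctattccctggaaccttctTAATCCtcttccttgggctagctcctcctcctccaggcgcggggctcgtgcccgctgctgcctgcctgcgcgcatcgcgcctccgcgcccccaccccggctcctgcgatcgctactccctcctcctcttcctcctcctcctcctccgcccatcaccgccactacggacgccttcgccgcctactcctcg
Gabrr1: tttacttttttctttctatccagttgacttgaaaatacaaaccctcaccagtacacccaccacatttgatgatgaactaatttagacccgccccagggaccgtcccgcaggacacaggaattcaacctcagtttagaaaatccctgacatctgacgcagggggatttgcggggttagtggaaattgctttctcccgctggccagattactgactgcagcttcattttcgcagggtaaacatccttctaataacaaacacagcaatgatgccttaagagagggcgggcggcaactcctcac
Gabrr2: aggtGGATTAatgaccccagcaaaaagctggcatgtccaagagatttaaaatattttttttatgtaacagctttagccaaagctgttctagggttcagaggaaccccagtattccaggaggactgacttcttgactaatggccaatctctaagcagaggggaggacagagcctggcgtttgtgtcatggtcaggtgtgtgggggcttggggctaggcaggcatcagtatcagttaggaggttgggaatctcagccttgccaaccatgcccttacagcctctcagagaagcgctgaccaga
Drd4: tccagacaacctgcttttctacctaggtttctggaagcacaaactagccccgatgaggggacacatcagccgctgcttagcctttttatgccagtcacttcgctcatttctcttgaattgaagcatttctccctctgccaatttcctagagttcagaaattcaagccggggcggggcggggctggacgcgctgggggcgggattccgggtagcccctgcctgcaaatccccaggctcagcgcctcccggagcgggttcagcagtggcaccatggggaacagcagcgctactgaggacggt

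Gabra2 and Gabrr2 each held 1 match to the Otx core, and none of these 4 windows held the E-box core. GC content was 70.0%, 47.3%, 49.3% and 58.0% in the order printed, against a median of 52.7% over all windows. Among the 37 receptor genes matched in the table, with 45 windows, the Otx core was in 4 windows, of Chrm4, Chrne, Gabra2 and Gabrr2, and the E-box core in 2, of Adra2c and Chrna7. Over all 32851 windows the shares were 7.062% and 7.15%. Of the 20 matched genes above the limit on all arrays, 2 held the Otx core and 2 the E-box core. The matches describe letters in these windows and say nothing of binding.

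Nicotinic receptors fall into neuronal subunits and those of the muscle endplate. Of the neuronal genes, Chrna6, a subunit of ganglion cells that is carried to their axon terminals, gave 1233, 876 and 671 (927 ± 284), a 1.84-fold span. Chrna7, whose subunit forms calcium-permeable channels by itself, gave 308, 321 and 413 (347 ± 57.6), a 1.34-fold span. Chrnb2, the usual beta partner in neurons, was below the limit on all arrays, at 84.4, 47 and 71.4.

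Endplate subunit genes were seen unevenly. Chrng, the fetal gamma subunit, gave 362, 96.8 and 151 (203 ± 140.2), highest in replicate 1 by 3.74-fold over replicate 2. Chrnb1 gave 160.4, 262 and 74, barely above the limit in replicate 1 and below it in replicate 3. Chrne, the adult epsilon subunit, gave 231, 110.1 and 67.1, below the limit in replicate 3. Chrna1 was seen in replicate 1 alone, at 165 against 20.8 and 21, and only at 1.03 times the limit. Chrnd was seen in replicate 3 alone, at 189 against 102 and 24.4. No pool was therefore highest for all endplate subunits.

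Skeletal muscle markers, which would accompany eye muscle in a sample, were above the limit on all arrays for 2 of 9 genes, Mylpf and Myog, and on none for Tnni2 and Myh1. Their summed signal was 1747, 868 and 1029 in replicates 1, 2 and 3. The markers did not share an order. Myog, a muscle regulator, gave 438, 84.6 and 249.5, highest in replicate 1. The contractile genes Myh3 (421, 9.52 and 8.50), Tnnt3 (289, 68.8 and 36.9) and Tnnc2 (173, 17.0 and 22.6) were above the limit in replicate 1 alone. The contractile and energy genes Acta1 (56.7, 186 and 206) and Ckm (71.3, 299 and 266) were below the limit there. Whether muscle RNA plays a part in the endplate subunit signals was not tested.

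Muscarinic receptors, which couple acetylcholine to G proteins, were near or below the limit. Chrm1 was above it in replicate 3 alone, at 123 against 103 and 35.7, and Chrm4 on no array, at 51.1, 26.7 and 67.6.

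Dopamine adapts the retina to light. Drd4, known from photoreceptors, where dopamine lowers cyclic AMP through it, gave 2761, 3309 and 2357 (2809 ± 478). It lay 17.2-fold or more above the limit on every array, and the pools spanned 1.40-fold. Drd2, the autoreceptor of dopaminergic amacrine cells, gave 923, 409 and 449 (594 ± 286), highest in replicate 1 by 2.26-fold over the lowest pool. Th, the rate-limiting enzyme of dopamine synthesis in the same cells, gave 825, 193 and 205 (407 ± 361), also highest in replicate 1 with the other pools close together. The next enzyme, Ddc, did not follow, at 53.4, 99 and 174, below the limit in replicate 1. Drd3 was below the limit on all arrays, at 119, 27.1 and 46.9. The dopamine transporter gene Slc6a3 was below it too, from 57.6 to 97.3.

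Serotonin receptors formed the largest family, with 11 genes, of which 3 were above the limit on all arrays. Htr7, which raises cyclic AMP, gave 406, 286 and 312 (335 ± 63.0), a 1.42-fold span. Htr1d, which lowers cyclic AMP, gave 523, 316 and 547 (462 ± 127), and Htr5a gave 526, 239 and 493 (419.6 ± 157). Both of these were lowest in replicate 2, by 1.73-fold and 2.20-fold.

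A further 4 serotonin receptor genes were above the limit on 2 arrays. Htr3a, the gene of the ion channel among these receptors, gave 112, 169 and 253. Htr1b gave 74.6, 169.9 and 278, and Htr5b gave 47.7, 161 and 199. All of these were below the limit in replicate 1 and highest in replicate 3, by at least 1.58-fold, 1.73-fold and 1.24-fold over replicate 1. Htr1a, an inhibitory receptor, instead missed replicate 2, with 171, 22.2 and 130.1. Htr4 was seen in replicate 1 alone, at 437 against 61.6 and 72.7, and Htr2b in replicate 2 alone, at 107 against 65.3 and 33.8. Htr1f (132, 14.4 and 13.9) and Htr2c (89.4, 24.1 and 5.90) were below the limit throughout.

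Of the adrenergic receptor genes, Adra2c, an inhibitory alpha receptor, gave 476, 245 and 278 (333 ± 125), highest in replicate 1 by 1.94-fold over the lowest pool. Adra1b stayed below the limit on all arrays, at 117, 56.6 and 76.1.

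**Figure D3:**
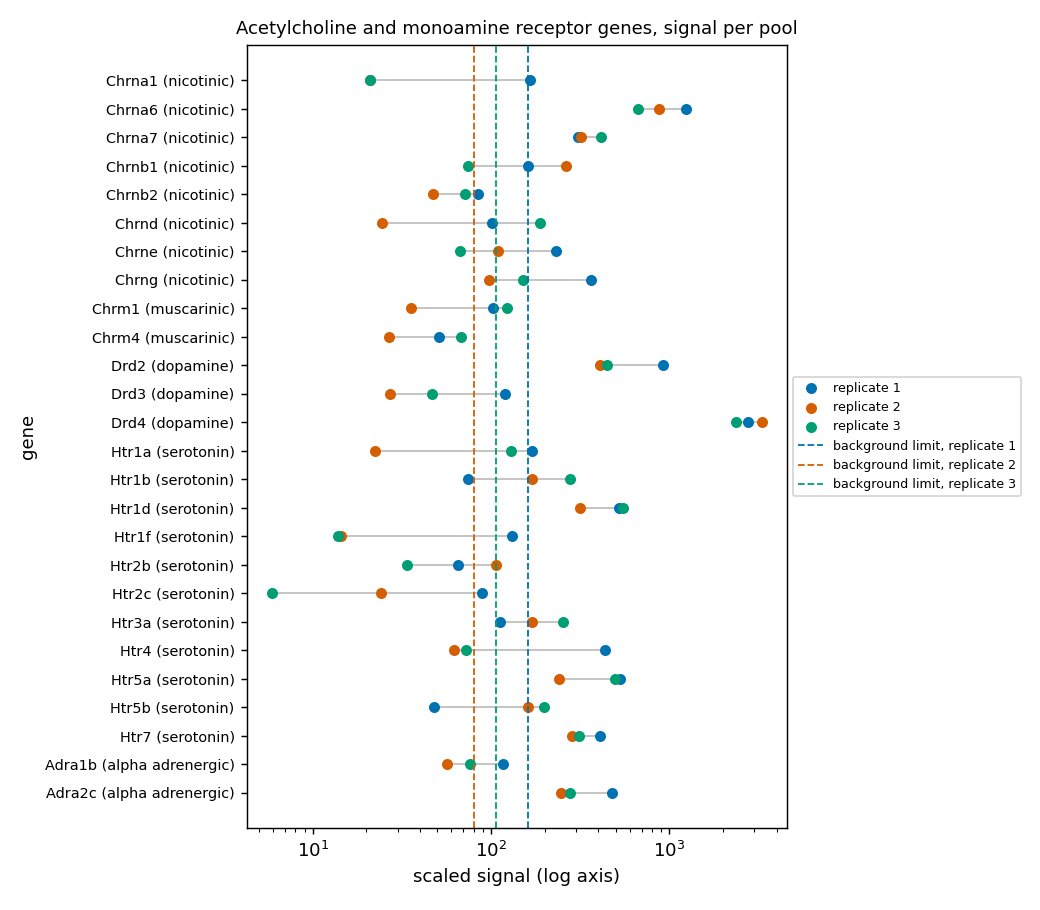
Each row is a receptor gene for acetylcholine, dopamine, serotonin or noradrenaline, with its scaled signal in each pool on a log axis and the background limit of each array as a dashed line. Drd4, at 2357 to 3309, lies far to the right of every limit, and most serotonin receptor genes straddle the limits.

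Several genes gave a different picture at another probe set, and 8 of the 51 had more than 1. Gria1 reversed between its probe sets, since the second gave 197, 351 and 522, lowest in replicate 1, where the first was highest. For Gria2 a probe set that also matches related sequences gave 2259, 2109 and 2367, above all limits with a 1.12-fold span, while the remaining 2 were at 148, 278 and 48.9 and at 8.59, 19.8 and 26.2. Grik5 gave 975, 212 and 535 at a second probe set, a 4.60-fold span with replicate 2 lowest, in place of 1.62-fold with replicate 3 lowest.

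Detection also turned on the probe set. Grik2, Htr4 and Chrne were above the limit on all arrays at another probe set, at 601, 173 and 120.2 for Grik2, 625, 259.7 and 522 for Htr4 and 164, 129 and 626 for Chrne. Of these, Chrne passed at only 1.02 times the limit in replicate 1 and Grik2 at 1.12 times in replicate 3. Counting any probe set, 28 of 51 genes were above the limit on all arrays. The share of all genes counted in this way was not computed. With the probe set of highest mean the count was also 28, against 62.5% of all genes. A second Chrng probe set ran against the first, at 116, 158 and 180.1, below the limit in replicate 1. Gabra6 was below the limit on all arrays at both of its probe sets.

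**Figure D4:**
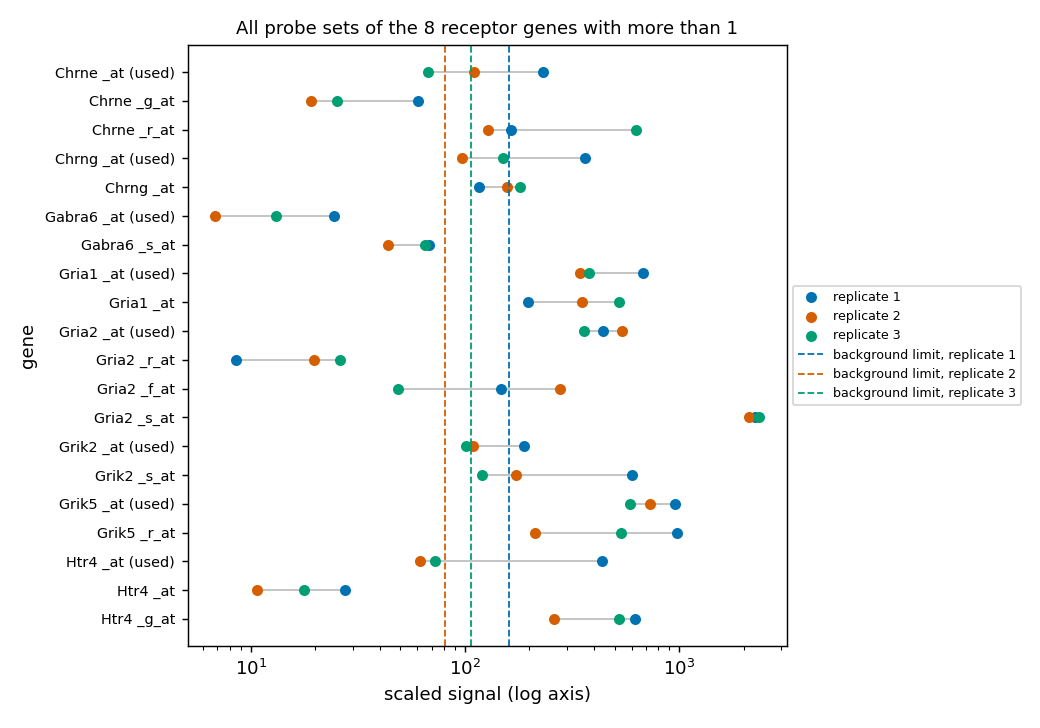
Each row is a probe set of the 8 receptor genes that have several, with its scaled signal in each pool on a log axis and the background limit of each array as a dashed line; suffixes are those of the array design. At Gria1 the order of the pools is turned round between its probe sets, and at Gria2 the probe sets lie at separate levels, from 8.59 to 2367.

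Among the 25 genes above the limit on all arrays, 8 (32%) spanned a factor of 2 or more between pools, which is 1 or more on the log2 scale. The share over all genes above the limit on all arrays was close, at 28.3%. The 8 were Chrng, Drd2, Gabrb1, Glra1, Grik1, Grin2c, Grin2d and Htr5a. In 7 of them replicate 1 was highest, Gabrb1 being the exception with replicate 3 highest. The matching share among all genes of such a span was not computed. Chrng was lowest in replicate 1 at its second probe set. Htr5a was highest in replicate 3 instead with quantile normalization or with medians equalised. Between replicates 2 and 3 alone, 1 of the 29 receptor genes above both limits differed by a factor of 2 or more, which was Htr5a. The median SD on the log2 scale was 0.44 for the 25 receptor genes and 0.36 for all genes. A narrow span was found for Gabra2, Gabrr1, Chrna7, Drd4 and Htr7, at 1.07-fold to 1.42-fold. Of these, Gabra2 widened under the other scalings as given above, while the log2 range of Htr7 went from 0.50 to 0.14 with medians equalised and 0.15 with quantile normalization.

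The 25 receptor genes above the limit on all arrays tended to be bright in replicate 1 and dim in replicate 2. The limit was 160.3 in replicate 1 against 80.7 and 107.1, so a gene near background needed a higher signal there to be counted. The median excess over all genes in replicate 1 was 0.47, and it was 0.34 with 1 limit for all arrays and 0.33 with no filter. Of the 25 genes, 14 had their highest signal in replicate 1, 4 in replicate 2 and 7 in replicate 3, against 42.6%, 33.0% and 24.4% of all genes above the limit on all arrays. The median log2 difference from the mean of the other pools was 0.54 for replicate 1, -0.33 for replicate 2 and -0.16 for replicate 3. Over all genes it was 0.06, -0.01 and -0.04. The receptor genes ranged from genes far above in replicate 1, such as Grin2c and Glra1, to genes below the other pools there, such as Gabrb1, Glrb and Grm8.

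Signal level moved with this pattern. Over the 1780 genes with a mean signal between 333 and 703, the quartiles of the receptor genes, the median difference in replicate 1 was 0.22 and in replicate 2 it was -0.11, and 50.73% had their highest signal in replicate 1. Taken over every probe set, the median signal was 296, 216 and 249.8. Markers of other cell types moved between the same pools. Their summed signals in replicates 1, 2 and 3 were 1422, 12026 and 7835 for pigmented cells, 5490.3, 31716 and 8254 for blood and 66374, 116500 and 86481 for lens. Sums for ganglion cells (8132, 6715 and 5649) and endothelium (2148, 1242 and 1666) were highest in replicate 1, as for skeletal muscle above. Within the ganglion cell list Rbpms ran the other way, at 206, 690 and 783. Sums were lowest in replicate 1 for rods (90351, 135560 and 91725) and bipolar cells (1402, 2784 and 2854). For rods the sums of replicates 1 and 3 were close, and Pde6b and Sag were lowest in replicate 3. Replicate 1 also had the lowest sum for amacrine and horizontal cells (14146, 18122 and 15266) and Müller glia (12448, 19732 and 17126). So it did for smooth muscle and stroma (1518.5, 2660 and 2959). A sum gives most weight to bright probe sets, and single markers differed. Gad1, Gad2, Calb1, Glul, Vim and Tagln were instead highest in replicate 1, as were Bfsp1 and Gja3 of lens. Slc32a1, Myh11, Lum and Col1a1 were not lowest there either. The part of signal level, of the filter, of the array and of cell makeup in the receptor pattern was not tested. After scaling to a common median, 11 of the 25 genes had their highest signal in replicate 1, and the share of all genes under that scaling was not computed. That scaling moved all log2 signals by -0.22, 0.23 and 0.02 in replicates 1, 2 and 3.

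**Figure D5:**
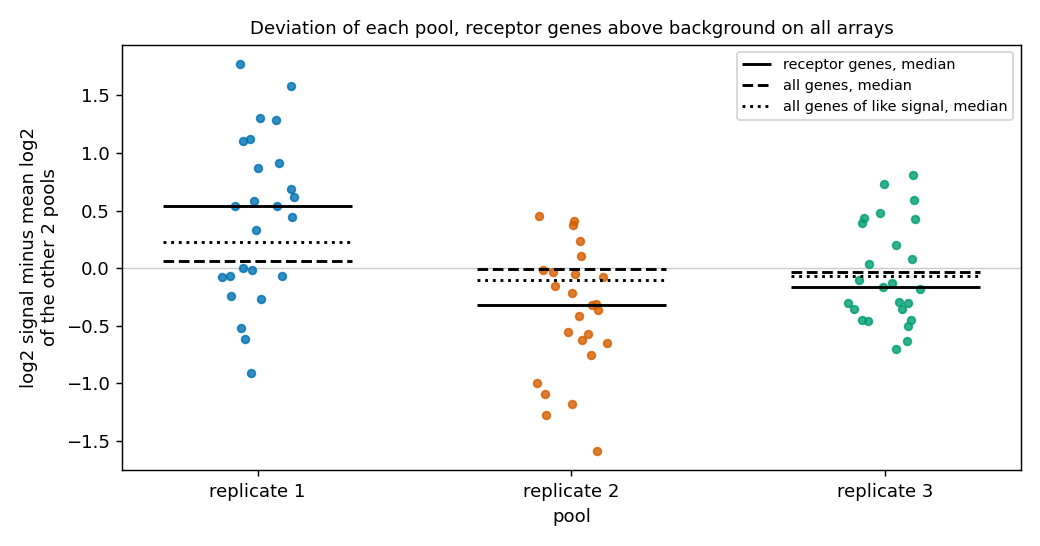
Points are the 25 receptor genes above the background limit on all arrays, placed by how far the log2 signal of a pool lies from the mean of the other 2 pools. Lines mark the median of the receptor genes (0.54, -0.33 and -0.16), of all genes above the limit (0.06, -0.01 and -0.04) and of genes of like signal (0.22, -0.11 and -0.07).

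Genes that make, clear, anchor or relay the transmitters give the setting of the receptors. Of 40 such genes measured, 28 were above the limit on all arrays and 4 on none, where all genes gave 60.7% and 15.7%. For synthesis and vesicle loading 3 of 7 were above it on all arrays, among them Gad1, which makes GABA, and Slc32a1, the vesicle transporter of GABA and glycine, at 2772, 2952 and 2184. Slc18a3, the vesicle transporter of acetylcholine, was below it on all arrays, from 46.2 to 55.7. Gad2, Ddc and Tph1 were above it on 1 or 2 arrays.

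For uptake 4 of 7 were above the limit on all arrays, including the glutamate transporter genes Slc1a1 (167, 484 and 374) and Slc1a2 (168, 143 and 138). Both were within 1.05-fold of the limit in replicate 1, and the count was 2 of 7 with the highest control or each array's 40th percentile as limit. The serotonin transporter gene Slc6a4 was seen in replicate 1 alone, at 328 against 27.9 and 29.2, as was Tph1, which makes serotonin, at 169.7 against 19.6 and 13.1. Tph1 passed there at only 1.06 times the limit. The neuronal glutamate transporter gene Slc1a6 was below the limit on all arrays, from 32.1 to 51.9.

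Anchoring genes were above the limit on all arrays for 13 of 16. Gphn, the scaffold of glycine and GABA-A receptors, gave 622, 969.9 and 712, and Dlg1, a scaffold of glutamate receptors, gave 1918, 1626 and 1509. Cacng2, which carries AMPA receptors to the membrane, gave 905, 360.2 and 509.7, a 2.51-fold span with replicate 1 highest, as for Gria1 at its first probe set. Rapsn, which clusters endplate nicotinic receptors, gave 1000.5, 527 and 631 and was above the limit on all arrays. Dlg3 gave 665, 186 and 29.7, so replicate 1 was at least 6.21-fold above replicate 3.

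Of the genes listed for the cascade behind the ON bipolar cell receptor, all 6 measured were above the limit on all arrays. Which cells gave these bulk signals was not tested. Trpm1, also listed as a bipolar marker, gave 632, 752 and 878, a 1.39-fold span. Gnb3, a G protein subunit (2830, 6074 and 4503), and the regulators Rgs7 (426, 958 and 603) and Rgs11 (722, 1507 and 1389.9) were each lowest in replicate 1 and highest in replicate 2, by 2.15-fold, 2.25-fold and 2.09-fold. Gnb5, whose product partners the regulators, differed, at 2893.5, 2865 and 1737, lowest in replicate 3. Gnao1 gave 5235, 6142 and 6427, a 1.23-fold span. Gabbr1, a subunit of the metabotropic GABA receptor, gave 1935.5, 2074 and 2221, a 1.15-fold span. Among genes that switch off G protein-coupled receptors, Arrb1 was above the limit on all arrays (517, 386 and 699), and the receptor kinase genes Grk5 and Grk6 missed it in replicate 1, at 67.0 and 119.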

How the data were processed

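The deposited table holds a linear signal intensity for each of 12488 probe sets on 3 arrays, with a trimmed mean near 500.2 per array. The authors' software for these intensities was not given in the sources used here. Depth has no meaning for arrays, and their number limits the precision. Each array was multiplied by a factor (0.998 to 1.00) that equalised the 2% trimmed means of the 12422 non-control probe sets. For log2 values only, signals under the 5th percentile were raised to that percentile. An "at least" fold sets the highest pool against the background limit of the lowest. Symbols came from the platform annotation, and 51 of 51 receptor genes matched the mouse gene table of GRCm38.p6 by gene ID, used for names and gene order.

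Families, associated genes and markers were listed with earlier results of these data known. Every member is named, with its value in each pool. With 1 group there was no test and no p-value. The computation was tested on simulated data. Alternatives covered the limit, scaling, floor, probe set and left-out pools. Work used Python 3.11.15, numpy 2.4.6, pandas 2.3.3 and scipy 1.17.1.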

Additional observations from a re-analysis of the deposited data

How the results depend on the processing

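The count of receptor genes above the limit on all arrays, 25, ranged from 21 to 29 except with the median control as limit. That limit gave 46 of 51, with 1 gene below on all arrays and 26 spanning 2-fold or more. The shares of all genes moved as well, from 60.7%, 15.7% and 28.3% to 85.8%, 1.89% and 42.9% in that order. The share of all genes above on all arrays was 55.1% with 1 limit for all arrays, where the receptor count was 21. It was 69.6% without replicate 1, where that count was 29. The count of receptor genes below on all arrays was otherwise 8 to 12, and 15 with each array's 40th percentile as limit. Of all genes, 20.3% were below without replicate 1, where the receptor count was 12, and 22.4% with that percentile. The count spanning 2-fold or more was 5 with that percentile and 5 with 1 limit for all arrays (chosen after seeing the data). All genes then gave 24.2% and 24.0%. It was 18 of 51 with no filter (29.9% of all genes) and 21 of 25 at a range threshold of 0.5 (69.6%). Without replicates 1, 2 and 3 in turn it was 1 of 29, 7 of 27 and 8 of 29, against 5.66%, 17.8% and 21.9% of all genes. The count therefore rests on replicate 1, and the share of all genes, 28.3% with all arrays, fell without that pool too. Chrng, Grik1 and Grin2d fell below with the percentile or the single limit, Gabrb2 with the percentile and, like Gabrb1, with the highest control, and Gria4 with the single limit.

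The excess of the median difference over that of all genes was 0.47 in replicate 1 and stayed between 0.30 and 0.48, with 0.34 after quantile normalization. Against all genes with a mean signal between 333 and 703 it was 0.31, but the receptor genes themselves were not limited to that band. In replicate 2 the excess over all genes was -0.32, from -0.41 to -0.10. In replicate 3 it was -0.12, 0.0 with no filter, 0.38 without replicate 1 and -0.30 without replicate 2. The median log2 SD ranged from 0.33 without replicate 1 to 0.58 with the median control as limit, and was 0.47 and 0.48 without replicates 2 and 3. The highest pool changed for Gabra2, Gabrr2, Grik5 and Htr5a with a common median, which moved all log2 signals by -0.22, 0.23 and 0.02 in replicates 1, 2 and 3. It changed for Drd4, Gabra2 and Htr5a after quantile normalization, where the cause was not tested. Of counts by family or associated list, 209 kept within 1.5 times and 19 moved; of gene ranges, 434 moved by less than the SD and 76 by more. No paired analysis was possible because there is only 1 group.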
